A study of Mus musculus with 17 samples.

Results

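Trimethylation of lysine 4 of histone H3 (H3K4me3) was compared between WT CD4 and WT CD8 mature thymocytes, by the islands of enriched sequence reads deposited for 1 chromatin immunoprecipitation (ChIP-seq) library of each. Every island of both libraries was taken, 28449 from WT CD4 and 42013 from WT CD8, and islands that shared at least 1 bp were merged. This gave 62072 regions from 70462 islands, and the 2 libraries are 2 of the 17 samples of the series. WT CD4 and WT CD8 cells came from control mice of wild-type genotype and were sorted from thymus, with the mature thymocyte phenotype labelled TCRβ-high, CD69-negative and CD24-negative. The other thymocyte group of the series, DKO CD8, has the same surface phenotype and lacks Tcf1 and Lef1, a pair of related transcription factors deleted with CD4-Cre, a recombinase whose promoter becomes active before the CD4 and CD8 lineages part. DKO CD8 islands, and Tcf1 peaks mapped in splenic WT CD8 T cells against Tcf1-deficient splenic CD8 T cells, are used here only to describe the wild-type regions. The phenotype label of the WT CD4 samples names CD8+ cells, whereas their titles and source names say CD4. The titles were followed. No age or number of animals is labelled, and whether the control mice carried the Cre is not stated.

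H3K4me3 is placed by the SET1 and MLL methyltransferase complexes and marks the start sites of active and poised genes, above all those in CpG islands. Acetylation of lysine 27 (H3K27ac) marks active promoters and enhancers, and acetylation of lysine 9 (H3K9ac) active promoters. Trimethylation of lysine 27 (H3K27me3) is placed by Polycomb repressive complex 2 and marks silenced genes, and a promoter that carries it together with H3K4me3 is called bivalent. CD4 helper and CD8 cytotoxic T cells arise in the thymus from a common CD4+CD8+ precursor. The transcription factor ThPOK directs the CD4 lineage and Runx3 the CD8 lineage. Most promoters that T cells use are in use in both, and a smaller set of lineage genes differs.

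With 1 library on each side there is no spread between replicates, so no test was made, and a difference between these libraries cannot be told apart from one between single preparations. Intervals in brackets are exact 95% Clopper-Pearson intervals that cover counting error only. The WT CD4 islands held 850538 reads over 27.8 Mb and the WT CD8 islands 952636 reads over 37.9 Mb, or 30.6 and 25.2 reads per kb. Reads outside islands are not known, so a place without an island can still hold reads. The other marks of these cells also differed in how much was called: WT CD4 had 32651 and WT CD8 9860 H3K9ac islands, against 24476 and 56985 H3K27ac islands. WT CD8 stood apart in overlap with H3K27me3. Of H3K27ac islands, 14.8% in WT CD4, 13.6% in DKO CD8 and 33.3% in WT CD8 overlapped an H3K27me3 island of their own cells, marks that exclude each other on the same lysine. Of H3K4me3 islands, 19.4%, 11.5% and 24.8% did, and of H3K9ac islands 17.5%, 13.2% and 16.9%. Regions with an H3K27ac and an H3K27me3 island of the same wild type are called doubly marked below, and results that rest on them are given with and without them. Regions are named by their position in the mm9 build, counted from 1. A gene annotation and a genome of that build were not used here, so no gene is assigned to a region and no sequence is shown.

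Most H3K4me3 regions had an island in a single wild type. WT CD4 alone had 20295 regions (32.7%, 32.3 to 33.1), WT CD8 alone had 33694 (54.3%, 53.9 to 54.7), and 8083 (13.0%, 12.8 to 13.3) were shared. The single-library regions were weak. Those of WT CD4 alone had a median of 16 reads with quartiles of 14 and 21, and those of WT CD8 alone a median of 14 reads with quartiles of 12 and 20. The shared regions had medians of 45 WT CD4 reads and 27 WT CD8 reads. They held 54.2% of all WT CD4 island reads and 30.5% of all WT CD8 island reads. Read density was 21.7 reads per kb for WT CD4 alone and 22.6 for WT CD8 alone, against 46.9 (WT CD4) and 33.7 (WT CD8) at shared regions. Median widths were 800 bp in both single-library classes and 1200 bp at shared regions. By count, regions of 4 kb or wider leaned to WT CD8 alone. There were 18 of WT CD4 alone, 253 of WT CD8 alone and 83 shared ones. As shares of their classes these were 0.089%, 0.751% and 1.03%, so shared regions were the most often this broad.

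The stronger a WT CD4 island was, the more often WT CD8 had one too, up to nearly all of the strongest. Islands were ranked by reads within their own list and cut into 10 groups of equal size. The share of WT CD4 islands with a WT CD8 island was 4.53% in the lowest group, 9.07% in the fifth, 49.7% in the eighth, 79.4% in the ninth and 93.6% (92.6 to 94.5) in the highest, which starts at 58 reads. For WT CD8 islands the share with a WT CD4 island was 4.26%, 9.88%, 34.4% and 49.0% in groups 1, 5, 8 and 9 of the 10, and it was below that of the ninth, at 43.7% (42.2 to 45.2), in the highest, which starts at 41 reads. The highest groups differed in their other marks. An own H3K27ac island was found at 96.4% of the highest WT CD4 group and 93.1% of the highest WT CD8 group, an own H3K9ac island at 98.0% and 36.2%, and an own H3K27me3 island at 8.26% and 55.7%. The WT CD8 H3K9ac list was the shorter, as given above. Without the doubly marked islands, the highest groups came close to each other, with 94.1% of 2672 WT CD4 islands and 87.5% (86.0 to 89.0) of 1934 WT CD8 islands shared. In the ninth group these shares were 81.0% and 75.1%. The part of the doubly marked places in the difference between the libraries was not tested beyond these values.

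**Figure D1:**
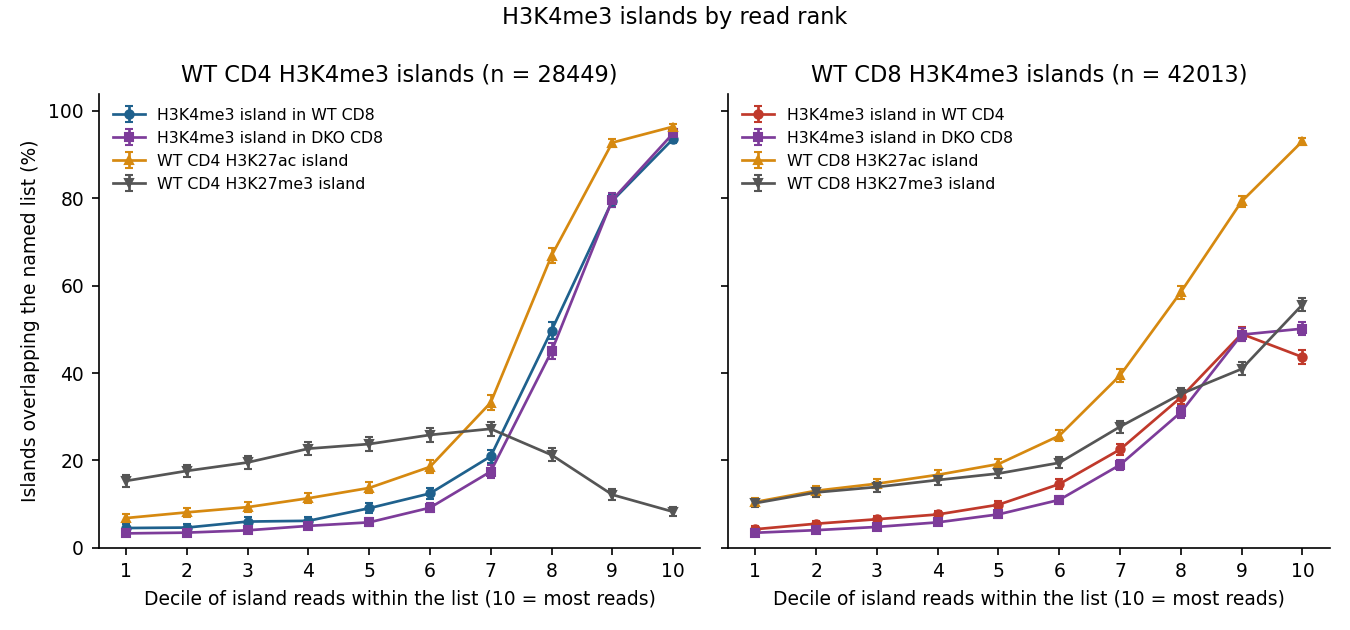
Share of H3K4me3 islands (%, y axis) that overlap an island of each named list, by decile of their reads (x axis, 10 holding the most reads), for WT CD4 islands at left and WT CD8 islands at right; bars are exact 95% binomial intervals. At left the H3K4me3 curves of WT CD8 and DKO CD8 end at 93.6% and 94.9%, and at right those of WT CD4 and DKO CD8 end at 43.7% and 50.2% while the H3K27me3 curve reaches 55.7%.

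Most shared regions had H3K27ac in every group, with H3K9ac at most of them in WT CD4 and at a minority in DKO CD8 and WT CD8, and most single-library regions had neither mark. Among shared regions, 86.8% had a WT CD4, 85.5% a DKO CD8 and 70.5% a WT CD8 H3K27ac island, and 83.5%, 47.2% and 43.0% an H3K9ac island of the same 3 groups. In WT CD4 alone, the regions with an H3K27ac island were 15.2% in WT CD4, 15.1% in DKO CD8 and 11.1% in WT CD8, with no group far above the others. In WT CD8 alone these shares were 4.28%, 4.41% and 28.9%, and most of the H3K27ac there was of the WT CD8 library itself. H3K27me3 showed a like contrast, with WT CD4, DKO CD8 and WT CD8 islands at 22.6%, 17.0% and 13.4% of WT CD4 alone and at 11.5%, 8.76% and 29.1% of WT CD8 alone. Without doubly marked regions the H3K27me3 shares were 19.6%, 14.5% and 11.7% of WT CD4 alone and 12.9%, 9.10% and 9.74% of WT CD8 alone. The H3K27ac shares were then 11.9%, 13.5% and 10.4% of WT CD4 alone and 4.70%, 4.92% and 9.58% of WT CD8 alone. Doubly marked regions have both own marks by definition, so leaving them out had to lower the own shares. In WT CD8 alone it took out 7212 of the 9792 regions with WT CD8 H3K27me3. The lower own shares are therefore no separate result. In 55.5% of WT CD4 alone and 53.4% of WT CD8 alone, neither wild type had an island of any of the other 3 marks. These regions were the weakest, with medians of 15 and 13 H3K4me3 reads.

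**Figure D2:**
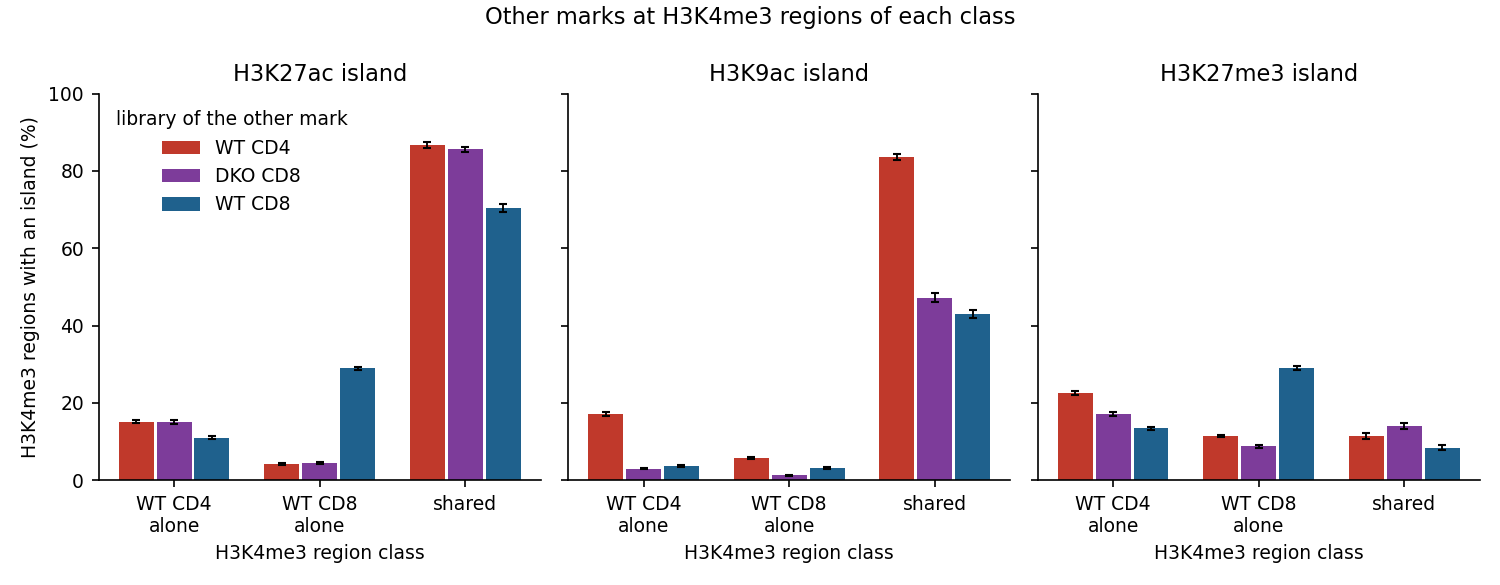
Share of H3K4me3 regions (%, y axis) of WT CD4 alone, WT CD8 alone and both (x axis) that overlap an H3K27ac, H3K9ac or H3K27me3 island of WT CD4, DKO CD8 or WT CD8; bars are exact 95% binomial intervals. In WT CD8 alone the WT CD8 bars stand at 28.9% for H3K27ac and 29.1% for H3K27me3, above both other groups, whereas in WT CD4 alone the H3K27ac bars of WT CD4 and DKO CD8 are 15.2% and 15.1%.

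Doubly marked regions made up 769 of WT CD4 alone and 7212 of WT CD8 alone, or 21.4% (21.0 to 21.8) of the regions of WT CD8 alone, and these 7212 held 26.9% of all WT CD8 H3K4me3 island reads. They were broader and stronger than the rest of WT CD8 alone, with a median of 1200 bp and 28 reads, against 600 bp and 14 reads in the other 26482. The same places had medians of 65 WT CD8 H3K27ac reads and 102 WT CD8 H3K27me3 reads, counted over whole islands. Across them the WT CD8 reads of the marks moved together: Spearman's rho was 0.47 for H3K4me3 with H3K27me3, 0.55 for H3K4me3 with H3K27ac and 0.75 for H3K27ac with H3K27me3, across 7212 regions that share libraries and widths. Over the 769 doubly marked regions of WT CD4 alone the same 3 values were −0.05, 0.23 and −0.10. Other groups had islands at a minority of the 7212 places, with DKO CD8 H3K4me3 at 815 (11.3%), WT CD4 H3K27ac at 2.76%, WT CD4 H3K27me3 at 6.30%, DKO CD8 H3K27me3 at 7.50% and a Tcf1 peak at 8 of them. At the other 26482 regions of WT CD8 alone, DKO CD8 H3K4me3 was found at 3.23%. At the 769 of WT CD4 alone, in contrast, 81.3% had a DKO CD8 and 57.9% a WT CD8 H3K27me3 island. WT CD8 H3K9ac, a mark of active promoters, was found at 590 (8.18%) of the 7212, and WT CD4 H3K9ac at 337 (43.8%) of the 769. Both were above the rest of their classes, with WT CD8 H3K9ac at 1.83% of the other 26482 and WT CD4 H3K9ac at 16.1% of the other 19526. The WT CD8 H3K9ac list was the shorter, with 9860 islands against 32651.

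Among strong single-library regions this pattern was stronger still. With at least 30 reads there were 1569 regions of WT CD4 alone and 4020 of WT CD8 alone. Of the 4020, 82.5% (81.3 to 83.7) were doubly marked, and with at least 60 reads it was 91.6% of 1000, whereas of 170 such regions of WT CD4 alone 12.9% were. Without doubly marked regions, 1355 regions of at least 30 reads were left for WT CD4 alone against 704 for WT CD8 alone. Which class was larger then rested on the scale. With the WT CD4 minimum raised to 48.3 reads by the median ratio of shared regions there were 321 for WT CD4 alone, below the 704, and with it set to 26.8 reads by total island reads there were 1909. An own H3K9ac island was found at 62.0% of the 1569 and 9.48% of the 4020, and at 60.9% of the 1355 and 6.53% of the 704. The H3K9ac lists were of unequal length, and at shared regions too they gave 83.5% for WT CD4 and 43.0% for WT CD8. An own H3K27ac island was found at 55.8% of the 1355 and 42.5% of the 704. WT CD8 H3K27ac reached 40.7% of the 1355, whereas WT CD4 H3K27ac reached 8.66% of the 704.

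**Figure D3:**
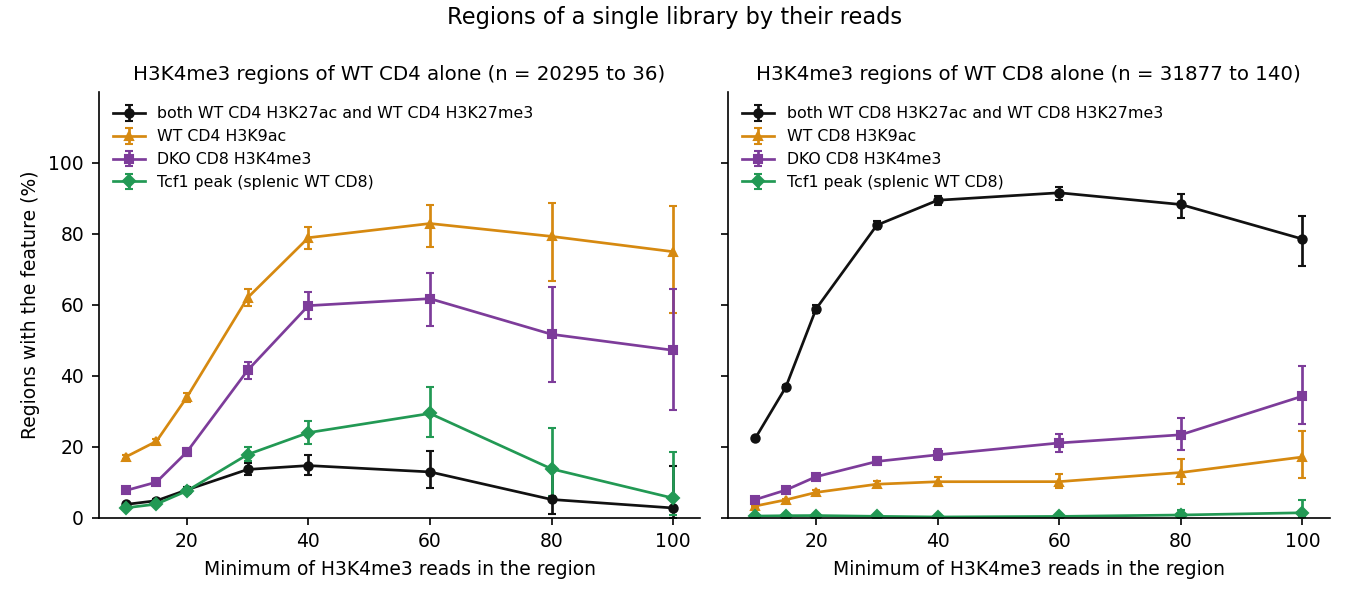
Share of regions with a feature (%, y axis) among regions of WT CD4 alone (left) and WT CD8 alone (right) with at least the number of H3K4me3 reads on the x axis; bars are exact 95% binomial intervals. At 60 reads or more, 12.9% of WT CD4 alone and 91.6% of WT CD8 alone were doubly marked, and 82.9% and 10.2% had an own H3K9ac island. The H3K9ac lists held 32651 islands in WT CD4 and 9860 in WT CD8.

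The Tcf1- and Lef1-deficient CD8 cells had H3K4me3 islands at 7.72% (7.35 to 8.09) of WT CD4 alone, 4.96% (4.73 to 5.19) of WT CD8 alone and 74.4% (73.4 to 75.4) of shared regions. With at least 30 reads the shares were 41.6% (39.1 to 44.0) of WT CD4 alone and 15.9% (14.8 to 17.1) of WT CD8 alone. Without doubly marked regions they were 41.6% of 1355 and 17.6% of 704. DKO CD8 thus had islands more often at the strong regions of WT CD4 alone than at those of WT CD8 alone, the wild type of its own lineage. A like lean was found in WT CD8 itself for H3K9ac, at 17.0% of the 1355 and 6.53% of the 704. It was not found for WT CD8 H3K27ac, at 40.7% and 42.5%. DKO CD8 had 23411 islands in all. Peaks of Tcf1, a DNA-binding protein of the TCF/LEF family, lay in 2.82% (2.60 to 3.06) of WT CD4 alone, 0.478% (0.407 to 0.557) of WT CD8 alone and 31.3% (30.3 to 32.3) of shared regions, although the peaks came from CD8 cells. With at least 30 reads and no doubly marked region, they lay in 18.8% (16.8 to 21.0) of WT CD4 alone and 1.85% (0.987 to 3.14) of WT CD8 alone.

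Both acetyl marks were found at a small set of single-library regions. Own H3K27ac and own H3K9ac islands were found at 1821 regions (8.97%) of WT CD4 alone and 744 (2.21%) of WT CD8 alone. Of these, 742 and 552 had neither mark in the other wild type. Once regions with an own H3K27me3 island were also left out, 549 regions remained for WT CD4 and 59 for WT CD8. The WT CD4 H3K9ac list was the longer by the counts given above, and its part in this was not tested. Of the 549 regions, 210 (38.3%, 34.2 to 42.5) had a DKO CD8 H3K4me3 island, 460 (83.8%) a DKO CD8 H3K27ac island and 118 (21.5%) a Tcf1 peak. Among all 1821 regions of WT CD4 alone with both own acetyl marks these shares were 48.0%, 88.0% and 24.1%. Each was thus lower in the 549 than in the larger set they came from. Of the 59, 5 and 8 had these DKO CD8 islands and none had a Tcf1 peak, with an exact upper limit of 6.06% (5.08% by 3 counts of 59). Of all 744 of WT CD8 alone, 157 (21.1%) and 141 (19.0%) had these DKO CD8 islands and 29 had a Tcf1 peak. H3K27me3 of the other wild type without own H3K27me3 was found at 611 regions of WT CD4 alone and 2078 of WT CD8 alone. With own H3K27ac and no H3K27ac of the other as well, 29 (0.143% of the class) and 123 (0.365%) remained. Whether these counts are below what the coverage of the marks gives was not tested.

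Among regions of WT CD4 alone with both own acetyl marks and neither of WT CD8, outside high-signal places, the most H3K4me3 reads were at chromosome 17, 84858401 to 84863600. It had 145 H3K4me3 reads in WT CD4, 178 in DKO CD8 and no island in WT CD8, and WT CD4 was the only group with H3K27ac (172 reads) and H3K9ac (133 reads). Its only H3K27me3 island was of DKO CD8 (280 reads). Next came chromosome 3, 89194401 to 89198200, with 124 H3K4me3 reads in WT CD4 and no island in DKO CD8 or WT CD8. Its H3K27ac islands held 389 reads in WT CD4 and 57 in DKO CD8, with none in WT CD8, and WT CD4 alone had H3K9ac (39 reads). Here H3K27me3 ran the other way, with no island in WT CD4, islands of 2594 reads in DKO CD8 and islands of 224 in WT CD8, counted over whole islands that reach past the region. So all 3 active marks were called in WT CD4, and the Polycomb mark only in both CD8 groups. Behind it, chromosome 4, 151498801 to 151500800, had 92 H3K4me3 reads in WT CD4, 14 in DKO CD8 and no island in WT CD8, with H3K27me3 islands in all 3 groups. It was doubly marked in WT CD4, with 109 H3K27ac and 993 H3K27me3 reads.

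In WT CD8 alone, the most H3K4me3 reads among regions with both own acetyl marks and neither of WT CD4 were at chromosome 10, 84876801 to 84881600, with 142 H3K4me3 reads in WT CD8 and no island in WT CD4 or DKO CD8. Its H3K27ac islands held 345 reads in DKO CD8 and 275 in WT CD8, and it was doubly marked, with 165 WT CD8 H3K27me3 reads. The next, chromosome 1, 176972201 to 176977600, had 139 H3K4me3 reads in WT CD8 and was doubly marked too. Every one of its 4 islands was of WT CD8. Chromosome 17, 7136601 to 7142200, had 134 WT CD8 H3K4me3 reads, 125 H3K27ac reads in DKO CD8 and 213 in WT CD8, 24 WT CD8 H3K9ac reads and no H3K27me3 island in any group.

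A region singled out after its values were seen was chromosome 6, 124829601 to 124839000. WT CD4 had an H3K4me3 island of 468 reads over its 9.4 kb, and neither DKO CD8 nor WT CD8 had one. H3K27ac had 3160 reads in WT CD4, 1688 in DKO CD8 and 357 in WT CD8. H3K9ac had 1180 reads in WT CD4 and 667 in DKO CD8, with no island in WT CD8. H3K27me3 had 513 reads in WT CD4, 2366 in DKO CD8 and 1031 in WT CD8, so the region was doubly marked in both wild types. Islands were found in 9 of the 12 histone libraries, with edges within 600 bp of the region in all but WT CD8 H3K27me3, whose 1031 reads lay in an island that ran from 124828401 to 124845000. The region counts among 45 high-signal places, which overlap an H3K27me3 island of more than 10 times the median read density of its list. Of those places 16 belonged to WT CD4 alone, 8 to WT CD8 alone and 21 were shared.

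At shared regions the islands of both wild types mostly lay on top of each other. In 7801 of 8083 regions (96.5%) 1 WT CD4 island met 1 WT CD8 island, with a median of 200 bp between their centres, the step of the grid on which islands were called. The edges were identical in 868 of these. WT CD4 islands were the wider in 4185 regions (51.8%) and WT CD8 islands in 2331 (28.8%). The reads of both libraries correlated across shared regions with a Spearman's rho of 0.63, and with 0.44 when each was divided by the length of its own islands. Both values are across 8083 regions, which are not replicates.

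Reads at shared regions were 1.61-fold higher in WT CD4 at the median, and each region's log2 ratio of WT CD4 over WT CD8 was set relative to that median. The quartiles were −0.45 and 0.42, and the 5th and 95th percentiles were −1.21 and 1.06. At least 2-fold higher in WT CD4 were 492 regions (6.09%), and at least 2-fold lower were 647 (8.00%). Regions doubly marked in WT CD8 were more frequent in the lower tail: 161 of the 647 (24.9%) were of that kind, with a median log2 ratio of −1.69, against 18 of the 492 higher (3.66%), 217 of the 6944 within 2-fold (3.12%) and 396 of all 8083 (4.90%). Without regions doubly marked in either wild type, 436 were higher and 439 lower on the same median, and 408 and 474 on the median of the regions that remained, so the excess of lower regions was smaller or gone. With division by all island reads in place of the median, 3246 were higher and 105 lower, so the direction of a shared region is only relative to the others. The higher regions had medians of 66 WT CD4 and 16 WT CD8 reads and the lower ones 18 and 32.

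**Figure D4:**
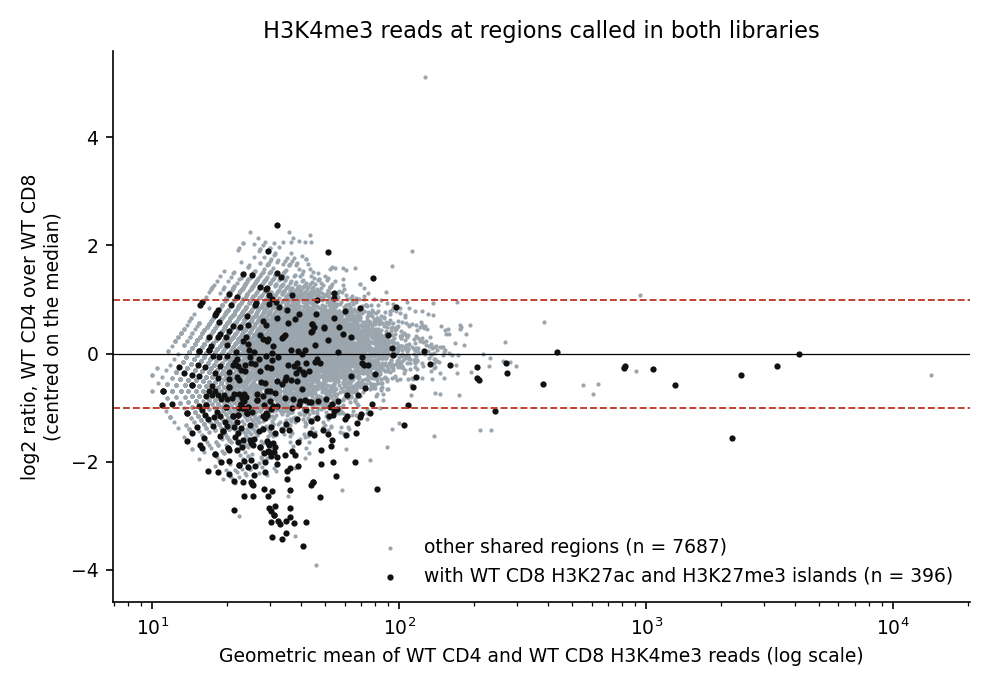
Log2 ratio of H3K4me3 reads, WT CD4 over WT CD8, relative to the median (y axis), against the geometric mean of the reads (x axis, log scale), with 1 point per shared region and dashed lines at 2-fold. Black points are the 396 regions with WT CD8 H3K27ac and H3K27me3 islands, of which 161 lie at least 2-fold below the median.

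The ratio leaned to WT CD8 at regions with H3K27me3, most where WT CD8 alone had it. At 6892 shared regions with no H3K27me3 in either wild type the median log2 ratio was 0.04, with 6.18% higher and 5.30% lower. It was −0.16 at 513 regions with WT CD4 H3K27me3 alone, and −0.26 at 415 with H3K27me3 of both. At 263 regions with WT CD8 H3K27me3 alone it was −1.10, and 139 of these (52.9%) were at least 2-fold lower in WT CD4. H3K4me3 was thus relatively higher in the wild type that also had H3K27me3 at these 263 regions, but not at the 513. Of 211 lower regions with a WT CD8 H3K27me3 island, 161 were doubly marked in WT CD8, and the 263 were not split by this. Spearman's rho between the H3K4me3 and H3K27me3 ratios was 0.33 across the 415 regions. It was 0.03 across the 120 left without regions doubly marked in either wild type. Without regions doubly marked in either wild type, 45 of the 439 lower regions (10.3%) and 4 of the 436 higher ones (0.917%) had a WT CD8 H3K27me3 island. A WT CD4 H3K27me3 island was found at 49 (11.2%) and 6 (1.38%) of them, so there the contrast was not particular to WT CD8.

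Acetylation differed little at regions with higher H3K4me3 in WT CD4, and leaned the same way as H3K4me3 at those with lower. Where both wild types had H3K27ac islands, the median H3K27ac log2 ratio, again relative to the median of all H3K4me3 regions, was 0.02 at 385 regions with higher H3K4me3 in WT CD4 and 0.06 at 4743 within 2-fold. It was −0.29 at 257 with lower H3K4me3, of which 28.4% were at least 2-fold lower in H3K27ac, against 4.24% of those within 2-fold and 10.4% of all 7253 regions measured. At the 385, 7.53% were at least 2-fold higher in H3K27ac, against 6.45% of those within 2-fold and 6.65% of the 7253. H3K9ac gave 0.14 at 239 higher, 0.07 at 2987 within 2-fold and −0.38 at 118 lower regions. Of these 118, 24.6% were at least 2-fold lower in H3K9ac, against 6.26% of those within 2-fold and 9.05% of 3946 measured. Of the 239, 8.37% were at least 2-fold higher, against 6.13% and 5.83%. Spearman's rho between the H3K4me3 and H3K27ac ratios was 0.05 across 5385 regions, and between the H3K4me3 and H3K9ac ratios 0.16 across 3344, with the WT CD4 and WT CD8 libraries of each mark behind all points. Without regions doubly marked in either wild type, the medians at lower regions were −0.10 for H3K27ac (189 regions) and −0.19 for H3K9ac (88 regions), of which 11.6% and 15.9% were at least 2-fold lower.

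**Figure D5:**
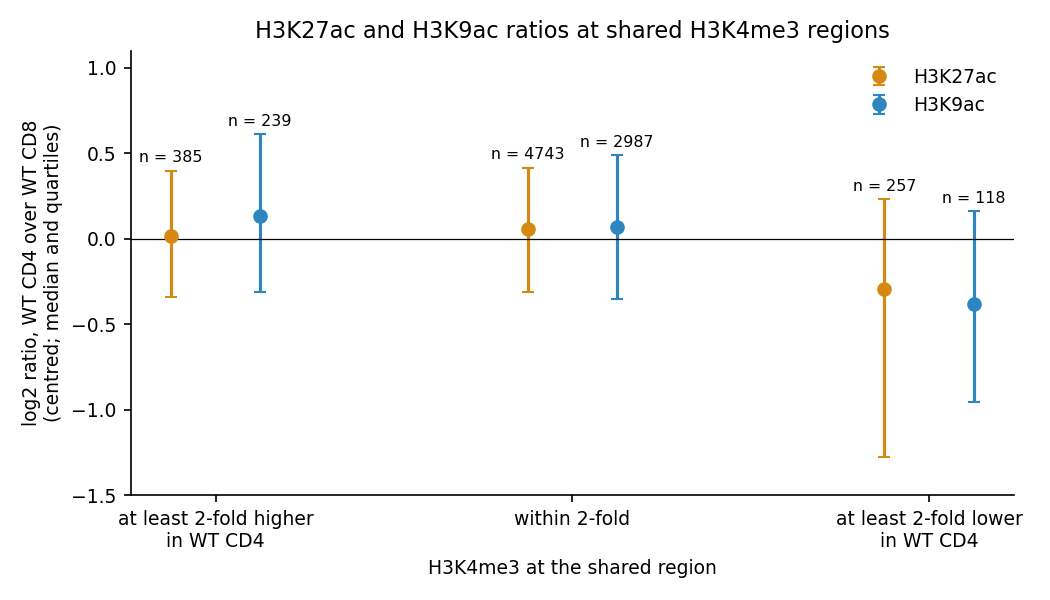
Log2 ratio of H3K27ac and H3K9ac island reads, WT CD4 over WT CD8, relative to the median (y axis), at shared H3K4me3 regions grouped by their H3K4me3 ratio (x axis); points are medians and bars the quartiles over n regions. The medians at regions with higher H3K4me3 are 0.02 and 0.14, and at those with lower H3K4me3 −0.29 and −0.38.

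Acetylation and Tcf1 peaks were more frequent at the shared regions higher in WT CD4 than at those lower. WT CD4 H3K9ac was found at 95.3% of higher, 57.8% of lower and 85.1% of other shared regions, WT CD8 H3K9ac at 49.2%, 22.1% and 44.5%, and a Tcf1 peak at 36.6%, 13.8% and 32.5%. DKO CD8 H3K4me3 islands were found at 89.2%, 44.4% and 76.2%. Median WT CD4 reads were 66 at higher and 18 at lower regions, and median WT CD8 reads 16 and 32. The part of read strength in these shares was not tested. Without doubly marked regions the higher and lower regions had DKO CD8 H3K4me3 at 90.1% and 49.2% and Tcf1 peaks at 38.3% and 18.7%. Where DKO CD8 had an island, the median reads at 439 higher regions were 69 in WT CD4, 34 in DKO CD8 and 17 in WT CD8, and at 287 lower regions 23, 26 and 37. The groups' totals differ, and at all 6014 shared regions with a DKO CD8 island these medians were 54, 33 and 31.

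In 589 shared regions the higher library had 100 or more reads and islands of each covered 50% or more of the length. Among them the 6 highest ratios lay between 1.37 and 1.61. The highest was chromosome 8, 15027001 to 15029800, with 207 H3K4me3 reads in WT CD4, 90 in DKO CD8 and 42 in WT CD8, a log2 ratio of 1.61 (1.13 to 2.13). It had a Tcf1 peak, and its H3K27ac islands followed the same order with 332, 298 and 40 reads. Chromosome 5, 43624001 to 43626600, had 130, 43 and 27 H3K4me3 reads in WT CD4, DKO CD8 and WT CD8, and H3K27ac islands of 213 and 196 reads in WT CD4 and DKO CD8 with none in WT CD8. The others were chromosome 17, 5491401 to 5493400, chromosome 2, 128792601 to 128794000, chromosome 11, 63732401 to 63735800, and chromosome 10, 122633001 to 122634800. In all 6, DKO CD8 lay between the wild types in H3K4me3 reads as counted. Per bp of own islands the 6 ratios were 0.67 to 0.93, so each was then under 2-fold.

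The lowest ratio among the 589 was at chromosome 13, 108648201 to 108650200, with 31 H3K4me3 reads in WT CD4, 46 in DKO CD8 and 110 in WT CD8, a log2 ratio of −2.52 (−3.14 to −1.93). Per bp of own islands it was −1.91. DKO CD8 alone had H3K27ac (60 reads) and H3K9ac (67 reads) islands there, and DKO CD8 and WT CD8 had H3K27me3. Chromosome 18, 7608601 to 7609800, had 49 H3K4me3 reads in WT CD4, no island in DKO CD8 and 119 in WT CD8, a log2 ratio of −1.97 (−2.48 to −1.48), and its H3K27ac islands held 97, 146 and 222 reads in WT CD4, DKO CD8 and WT CD8. It was −1.99 per bp of own islands. The next were chromosome 2, 60240601 to 60241400, chromosome 1, 87542201 to 87549000, which had a Tcf1 peak, chromosome 12, 114014001 to 114023600, and chromosome 11, 106804601 to 106811400. Their log2 ratios were −1.72 to −1.41. On division by all island reads these 4 were under 2-fold, between −0.87 and −0.55, and per bp of own islands only the last of them, at −1.12, stayed past 2-fold. DKO CD8 lay between the wild types in reads as counted at 2 of the 6 lowest, those on chromosome 13 and chromosome 2, and below both or without an island at the other 4.

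The widest and the most read shared regions had no common direction. The widest shared region outside high-signal places, chromosome 1, 90121601 to 90166800, spanned 45.2 kb with 1745 H3K4me3 reads in WT CD4, 954 in DKO CD8 and 511 in WT CD8. Its log2 ratio of 1.08 became −0.19 per bp of own islands. The other wide ones, chromosome X, 166609201 to 166635000, and chromosome X, 166577401 to 166594800, had log2 ratios of 5.12 and 0.58 that became −0.06 and −0.45 in the same way. The most reads after the widest region were at chromosome 10, 57683601 to 57698000, with 1225 in WT CD4, 1142 in DKO CD8 and 925 in WT CD8, and chromosome 8, 56196801 to 56209200, with 1038, 1051 and 800. Their log2 ratios were −0.28 and −0.31.

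The most reads in WT CD4 alone outside high-signal places were at chromosome 4, 118219601 to 118221400 (1378 reads in 1.8 kb), followed by chromosome 4, 3006401 to 3013600, chromosome X, 131575001 to 131591000, chromosome 16, 3231401 to 3242000, chromosome 5, 108150001 to 108151200, and chromosome 13, 120276401 to 120284200 (369 reads). In WT CD8 alone they were at chromosome 7, 67006401 to 67047600 (2809 reads in 41.2 kb), chromosome 6, 47600801 to 47637200, chromosome X, 166432401 to 166447000, chromosome 8, 19920401 to 19930400, chromosome X, 166526801 to 166527600, and chromosome 5, 15155801 to 15163400 (488 reads). Between 1 and 7 of the 12 histone libraries had an island at these places, with no common set of marks or groups. At the first of WT CD4 alone, WT CD4 H3K9ac and H3K27me3 held 1534 and 1592 reads, and WT CD8 H3K27ac and H3K9ac 980 and 1043. At the first of WT CD8 alone, DKO CD8 had 3103 H3K4me3 reads and WT CD4 3026 H3K9ac reads. All of these places but the one on chromosome 5 in WT CD8 alone had islands in other libraries, so the lack of 1 island there was not read as a lack of H3K4me3.

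Single-library regions also differed in where they lay. The median distance to the nearest shared region was 89.8 kb for WT CD4 alone and 151.8 kb for WT CD8 alone. With own H3K27ac and no own H3K27me3 it was 40.6 kb for 2315 regions of WT CD4 alone, of which 6.87% lay within 2 kb, and 187.2 kb for 2536 of WT CD8 alone, of which 2.48% did. The doubly marked regions of WT CD8 alone lay farthest, at 277.1 kb. Regions per Mb varied over the autosomes with a coefficient of variation of 18.9% for WT CD4 alone, 8.56% for WT CD8 alone and 26.4% at shared regions. WT CD4 alone was densest on chromosome 11 (10.7 per Mb) and sparsest on chromosome 3 (5.53 per Mb), and shared regions were also densest on chromosome 11 (5.46 per Mb). The X chromosome held 1.76% of WT CD4 alone, 5.05% of WT CD8 alone and 2.05% of shared regions, against 6.32% of the span of all chromosomes. It held 9.11% of the doubly marked regions of WT CD8 alone and 3.94% of the other 26482. The sex of the animals is not labelled, and its part in these shares was not tested.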

How the data were processed

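H3K4me3, H3K27ac, H3K9ac and H3K27me3 were measured by ChIP-seq in WT CD4, DKO CD8 and WT CD8 mature thymocytes, with 1 library each, and Tcf1 in splenic CD8 T cells. The submitters' processing notes give mm9 as the genome build and list MACS 1.4.2, SICER 1.1, Bowtie2 2.2.5 and FastQC without saying what each did. Some libraries were sequenced again for coverage, per the labels' protocols, which do not say which. Each deposited island carries its count of reads, which are whole and not scaled. Each deposited Tcf1 peak carries a score set by the authors, used only to rank peaks. The 3 inputs and the Tcf1-deficient library were not analysed here on their own, and the total reads of a library are not known.

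The work used matplotlib 3.10.9, SciPy 1.17.1, pandas 2.3.3 and numpy 2.4.6 under Python 3.11.15. Merging and overlaps of the deposited WT CD4 and WT CD8 H3K4me3 islands were checked with bedtools 2.31.1. Islands sharing at least 1 bp were merged. A region's reads in a library are the sum over its overlapping islands, and a mark is present where at least 1 bp of an island overlaps. Log2 ratios were centred on their median over shared regions and called at 2-fold. For other marks the median over all H3K4me3 regions with islands of both wild types was used. The ratio step was tested on simulated read counts. Ratio intervals are Clopper-Pearson, conditional on the sum of both counts.

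Outside high-signal places, the named regions are, among shared ones covered to 50% or more by islands of each library and reaching 100 reads in 1 of them, the 6 of highest and the 6 of lowest ratio. They also include the top 6 of each single-library class by reads, the 3 widest and the 3 most read shared regions, and the 3 regions of each single-library class with the most reads among those with own H3K27ac and H3K9ac islands and neither of the other wild type. The regions, classes and rules were chosen with earlier results of these data known, and doubly marked regions were defined after their values were seen. Alternatives changed scaling, thresholds, overlap and filters.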

Additional observations from a re-analysis of the deposited data

How the results depend on the processing

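No paired analysis was possible because each group has 1 library of each mark. Among the alternatives run, 50% overlap, merging within 1000 bp and equal covered length moved no count of a class by 1.5 times. Islands above the median reads of their list gave 6920 regions of WT CD4 alone and 13056 of WT CD8 alone. Leaving out doubly marked regions, chosen after seeing the data, gave 704 regions of WT CD8 alone with at least 30 reads. For WT CD4 alone, a minimum scaled by the median ratio, also chosen after seeing the data, gave 370 regions, and 321 without doubly marked ones. At least 2-fold higher and lower regions numbered 3246 and 105 on division by all island reads, 271 and 226 with at least 50 reads after scaling, 241 and 367 with both libraries covering 50% of the region, and 70 and 186 at 3-fold. With other marks' islands above their median reads, own H3K27ac and own H3K27me3 were at 8.05% and 17.2% of WT CD4 alone and at 23.2% and 22.0% of WT CD8 alone, both at 16.5% of WT CD8 alone, and H3K27ac of WT CD4 and WT CD8 at 72.0% and 51.0% of shared regions. With H3K4me3 islands above their median these became 39.8% and 27.4%, 55.4% and 52.6%, 44.9%, and 95% and 78.0%. DKO CD8 H3K4me3 in WT CD4 alone, WT CD8 alone and shared regions was at 7.10%, 3.17% and 76.8% without regions doubly marked in either wild type, and at 41.6%, 15.9% and 86.1% with at least 30 reads. Tcf1 peaks above the median score were at 1.42%, 0.243% and 15.7%. Without doubly marked regions Tcf1 peaks were at 0.559% of WT CD8 alone and 33.4% of shared regions, and with at least 30 reads at 17.8% of WT CD4 alone and 36.5% of shared regions. On division by total reads, which moves the median H3K4me3 ratio by 0.85 (log2), the median H3K27ac ratio was 1.72 at higher and 1.41 at lower H3K4me3 regions, and the H3K9ac ratio −0.65 and −1.17. With doubly marked regions left out and the rest centred anew, the H3K27ac medians were −0.013 and −0.15. Per bp of own islands the widest regions of chromosomes 1 and X reversed, to −0.19 and −0.059. The cause was not tested. Depth limits the weak regions most, since a place just under the calling threshold counts as lacking the mark.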
